A study of Mus musculus with 2 samples.

Results

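The 46 genes of DNA replication and S phase are described here in bone marrow-derived macrophages (BMDMs) with and without interleukin-4 (IL-4). They are a fixed list of names, the rule that finds them uses no measured value, and a gene was read from any array probe whose RefSeq accession belongs to it. All 46 were found, through 52 probes of 1 spot each, among 32448 genes and unnamed transcripts on the array, and 45 of them were detected on both, where detected means that the scanner software flagged the spot as well above background. The untreated group was BMDM RNA labelled as the 18 h untreated sample, and the IL-4 group was BMDM RNA after 18 h of IL-4, with 1 Agilent single-colour array each. Both came from male mice, and the study's methods give 8-week-old Crif1 f/f mice, a floxed strain, as the source of the cells on the arrays. The methods give 7 days of culture in M-CSF for such cells, so untreated cells are macrophages grown in a mitogen and not resting monocytes.

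With 1 array per condition there is no replicate, so no p-value is given and every difference below compares 2 arrays. In bulk RNA of this kind, fewer cells in S phase and less of an RNA per cell cannot be told apart.

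Replication origins are licensed in G1, when the origin recognition complex (ORC), CDC6 and CDT1 load the ring of MCM2 to MCM7 onto DNA. At the start of S phase CDC45 and the GINS complex turn that ring into an active helicase, and primase, polymerases, the sliding clamp PCNA and the enzymes of nucleotide synthesis then carry out the copying. Many of these genes are transcribed at the G1/S boundary by E2F factors, and growing macrophage cultures express them because M-CSF drives the cells into the cycle.

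A search for E2F-like letters describes the promoters of these genes apart from the measured signal. RefSeq promoter windows on GRCm38.p6, from 250 bases before to 50 bases after a transcription start, were held for 37 of the 46 genes, in 42 windows. The letters TTTCCCGC, TTTCGCGC, TTTGCCGC or TTTGGCGC, on either strand, were in 14 of the 42 windows (33.3%), against 744 of all 32851 windows (2.26%). Matches of these 4 words can overlap each other. For the 9 genes with a match wholly before the start site, a stretch of at most 60 bases of the window is printed. It runs 5′ to 3′ on the strand of the gene, with the matched bases in capitals and no base past the start site. Mcm6 has a further match, TTTGGCGC, that begins 47 bases before the start site and lies outside its printed stretch.

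Orc1, chr4:108579401-108579453, plus strand: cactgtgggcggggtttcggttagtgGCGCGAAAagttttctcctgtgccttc
Cdc6, chr11:98907987-98908046, plus strand: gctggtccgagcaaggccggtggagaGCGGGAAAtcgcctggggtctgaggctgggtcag
Mcm5, chr8:75109334-75109393, plus strand: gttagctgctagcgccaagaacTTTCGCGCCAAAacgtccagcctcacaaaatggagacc
Mcm6, chr1:128359778-128359837, minus strand: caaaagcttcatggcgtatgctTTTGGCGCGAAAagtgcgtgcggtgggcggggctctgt
Mcm7, chr5:138172015-138172074, minus strand: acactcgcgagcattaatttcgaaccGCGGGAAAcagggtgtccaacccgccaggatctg
Gins3, chr8:95633492-95633551, plus strand: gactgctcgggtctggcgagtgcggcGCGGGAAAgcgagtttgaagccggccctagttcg
Rfc3, chr5:151651209-151651244, minus strand: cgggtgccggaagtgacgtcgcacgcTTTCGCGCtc
Pola1, chrX:93632260-93632319, minus strand: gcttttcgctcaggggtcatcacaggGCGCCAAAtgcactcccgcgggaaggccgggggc
Uhrf1, chr17:56304102-56304161, plus strand: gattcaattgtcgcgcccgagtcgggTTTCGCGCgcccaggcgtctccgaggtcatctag

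In Mcm5 and Mcm6 a pair of matches on opposite strands overlapped, and the matched bases began 153 and 110 bases before the start site. A match is a description of the letters and not evidence of binding. The CCAAT box was in 57.1% of the windows of the replication genes against 37.4% of all windows, and the CHR letters TTTGAA, known from genes of mitosis, were in 9.52% against 17.9%. The STAT6-like pattern, TTC and GAA with 4 bases between them, was in 4 of the 42 windows (9.52%), against 6.95% of all. STAT6 is the factor that IL-4 activates.

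None of the 45 genes with a difference reached 2-fold in either direction, under this scaling or any other tried. None reached 1.5-fold either, but Tyms did with quantile normalization (0.60 on the log2 scale), cyclic loess (0.62), median scaling (0.67) and scaling on spike-in probes (0.74), and Orc6 did with spike-in scaling (0.63). The share of all genes past 1.5-fold is not given for those settings. The shares that follow are those of the 75th percentile scaling. Of all genes detected on either array, 4.47% were lower after IL-4 by 2-fold or more and 2.86% were higher by as much. Of the 17242 genes detected on both arrays, 5.6% were lower by 1.5-fold or more and 4.68% higher. Among the 13523 of those within the signal range of the replication genes, 8.73% passed 1.5-fold in either direction. The log2 differences of the 45 genes, IL-4 minus untreated on signals scaled to the 75th percentile of each array, ran from -0.42 for Gmnn to 0.46 for Tyms. Their interquartile range was 0.18, against 0.34 for all genes on both arrays.

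The median log2 difference was -0.07 over the 45 genes and -0.01 over all genes, and 33 of the 45 (73.3%) lay below 0, against 52.6% of all genes. That split depends on the scaling. After median scaling 10 of the 45 lay below 0, against 23.1% of all genes. With no scaling it was 20 of 45 against 36.2%, and with scaling on spike-in probes 6 of 45 against 17.6%. The replication genes had the larger share with no scaling, but not with median or spike-in scaling. The median of all genes itself stood at 0.20, 0.08 and 0.27 under these settings. Each of these scalings shifts all genes by the same amount. The difference between the 2 medians, -0.06, therefore cannot change between them, and its constancy is not a check.

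A pair of errors is given with each value. The first is the SD of a log2 difference between spots of a probe, estimated from probes printed in 10 spots of similar signal, which was 0.05 to 0.17 for these genes. The second is the error of a spot that the scanner software reports, 10 to 12.5% of its signal, which combines to 0.20 to 0.24 on the log2 scale for the 2 arrays. Neither covers the spread between cultures, and the software error was taken as a yardstick for single genes only after the values had been seen. The difference was larger than the software error for 15 of the 45 genes, 10 of them lower and 5 higher after IL-4, against 39.9% of all genes in either direction. That split moved with the scaling. It was 0 lower and 13 higher with median scaling, 2 and 6 with no scaling, and 0 and 23 with spike-in scaling. The share of all genes past the error is not given for those settings. The directions given below for single genes are therefore those of the 75th percentile scaling.

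**Figure D1:**
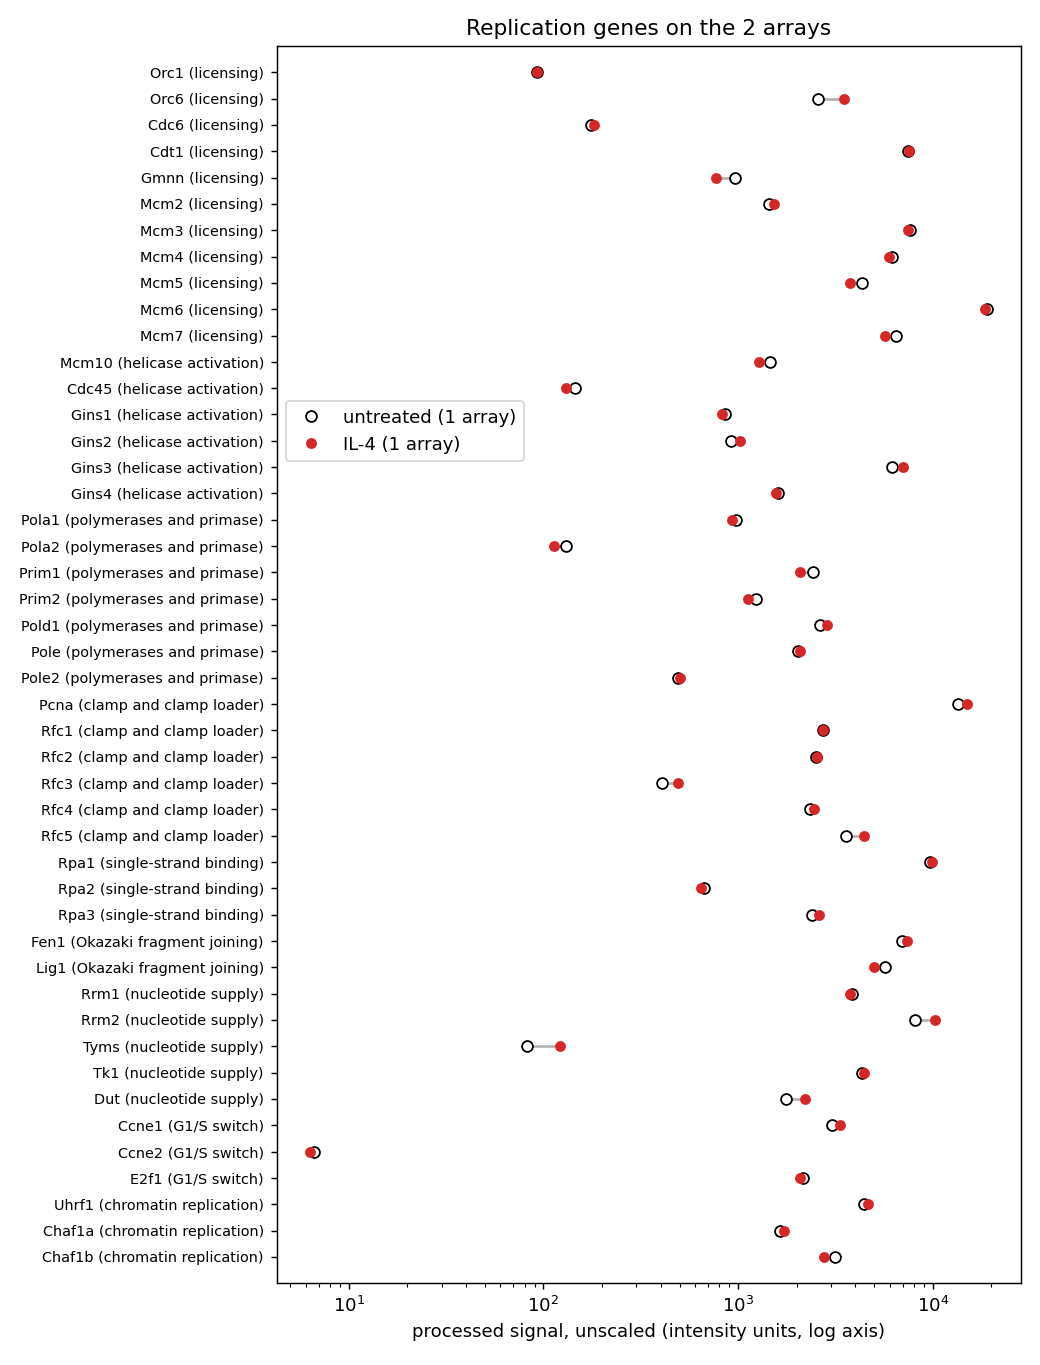
Background-subtracted, unscaled signal of each of the 46 genes without IL-4 (open circles) and with it (red circles), on a log axis in intensity units, with the genes in order of their role. The circles of a gene lie close together throughout, and Ccne2 (6.66 and 6.35) was detected on neither.

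Among the licensing genes, the MCM2 to MCM7 helicase subunits all had differences below 0, from -0.29 to -0.01 with a median of -0.13, although that median was 0.08 with median scaling and 0.15 with scaling on spike-in probes. Mcm5 gave an unscaled intensity of 4312 untreated and 3767 after IL-4, a scaled log2 difference of -0.29 ± 0.05 (spot SD). Mcm7 gave 6448 and 5655, also -0.29 ± 0.05. Both were lower on the IL-4 array by more than the software error of 0.20, but Mcm5 was at -0.08 and Mcm7 at -0.07 with median scaling, and at -0.0090 and -0.0030 with spike-in scaling. The other subunits stayed within that error, with -0.13 for Mcm3, -0.14 for Mcm4 and -0.12 for Mcm6. Mcm2, at 1433 and 1527, had the highest value of the 6, -0.01 ± 0.06.

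Geminin, encoded by Gmnn, is the inhibitor of CDT1 that blocks a second licensing in S and G2. Its intensity was 959 untreated and 769 after IL-4, which gave -0.42 ± 0.06, or 1.34-fold lower on the IL-4 array, and it was -0.13 with spike-in scaling. Its partner Cdt1 had 7423 and 7589, a difference of -0.07 ± 0.05 and so within the software error. Orc6, the smallest subunit of ORC, stood on the other side, with 2574 untreated and 3508 after IL-4, or 0.35 ± 0.05. Orc1, the ATPase subunit of the same complex, gave 92.2 and 92.4, a dim probe with a difference of -0.10 ± 0.17. Cdc6, the loader of the MCM ring, had 176 and 181 and a difference of -0.06 ± 0.10. Thus Gmnn had the lowest and Orc6 the highest difference of the licensing genes.

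Among the genes of helicase activation, Mcm10, a factor that helps the loaded helicase to start, had an intensity of 1461 untreated and 1280 after IL-4, a difference of -0.29 ± 0.06. Cdc45, a part of the active helicase, was dim at 146 and 131, with -0.25 ± 0.12. Both were lower by more than the software error, but with spike-in scaling Mcm10 was at -0.0044 and Cdc45 at 0.04. The 4 GINS subunits were split in sign and within that error, with -0.15 for Gins1, 0.06 for Gins2, 0.09 for Gins3 and -0.13 for Gins4.

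The 4 subunits of polymerase alpha-primase, which lays down the RNA-DNA primers, all lay below 0, from -0.32 to -0.17, but had 2 of 4 below 0 and a median of 0.02 with scaling on spike-in probes. Prim1, the catalytic primase subunit, had 2411 untreated and 2067 after IL-4, a difference of -0.32 ± 0.05. Prim2, the large primase subunit, had 1237 and 1125, or -0.24 ± 0.06, and was 0.05 with spike-in scaling. Pola2, the accessory subunit, was dim at 130 and 113 and gave -0.30 ± 0.13. These 3 passed the software error, though with spike-in scaling Prim1 was at -0.04 and Pola2 at -0.01, and Pola1, the catalytic polymerase subunit, did not at -0.17 ± 0.06. Of the polymerases that copy the bulk of the genome, the members gave 0.02 for Pold1, -0.07 for Pole and -0.05 for Pole2, a subunit of polymerase epsilon. All were within the software error. Other subunits of these polymerases, outside the members, ran from -0.20 for Pold3, lower than Pola1, to 0.23 for Pold2.

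Pcna, the sliding clamp, had an intensity of 13505 untreated and 14939 after IL-4, a difference of 0.05 ± 0.05. The 5 subunits of the clamp loader RFC ran from -0.11 for Rfc1 to 0.22 for Rfc5. Rfc5 had 3578 and 4458 and was the subunit past the software error, though it was within it at 0.16 with quantile normalization. Rfc3 had 405 and 488, or 0.17 ± 0.07. Rfc2 gave -0.09 and Rfc4 -0.03. The subunits of the single-strand binding protein RPA had -0.07 for Rpa1, -0.15 for Rpa2 and 0.03 for Rpa3, all within the software error.

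Lig1, the ligase that joins Okazaki fragments, had 5649 untreated and 4986 after IL-4, a difference of -0.28 ± 0.05. Fen1, the flap nuclease that trims them, gave 6973 and 7378, or -0.02 ± 0.05. Chaf1b, a subunit of the histone chaperone CAF-1, had 3133 and 2772, or -0.28 ± 0.05, while its partner subunit Chaf1a gave -0.03 ± 0.06. Uhrf1, which keeps DNA methylation on copied strands, gave -0.05 ± 0.05. On the brightest probe of each gene, Lig1 and Chaf1b were thus lower by more than the software error, and the other members of their roles were not. Both stood at 0.01 with spike-in scaling. A second, dim probe of Uhrf1 gave -0.53, past its software error of 0.28.

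The genes of nucleotide supply held 3 of the 5 genes that were higher after IL-4 by more than the software error. Of those 5, 2 were still past it with quantile normalization and 3 with normexp background correction. Rrm2, the S phase subunit of ribonucleotide reductase, had 8112 untreated and 10316 after IL-4, a difference of 0.25 ± 0.05. Rrm2 was at 0.18 with quantile normalization and 0.19 with normexp, within its software error of 0.20. Its partner Rrm1, the large subunit, had 3857 and 3754, or -0.14 ± 0.05. Dut, the dUTPase that keeps uracil out of DNA, had 1761 and 2197, or 0.22 ± 0.06. Tyms, thymidylate synthase, had the highest difference of all 45, 0.46 ± 0.16, on a dim probe at 82.3 and 121. With normexp background correction it was 0.11, within its software error of 0.24 and below the 0.30 of Orc6. Tk1, thymidine kinase, gave 4330 and 4417, or -0.07 ± 0.05. The role had a median of 0.22, where licensing had -0.12 and polymerases and primase -0.17, which became 0.51, 0.16 and 0.12 with spike-in scaling.

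Of the genes of the G1/S switch, Ccne1, cyclin E1, had 3035 untreated and 3343 after IL-4, a difference of 0.04 ± 0.05. Ccne2, cyclin E2, was detected on neither array and has no difference. E2f1, an activator of S phase genes, had 2146 and 2080, or -0.14 ± 0.05, within the software error.

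**Figure D2:**
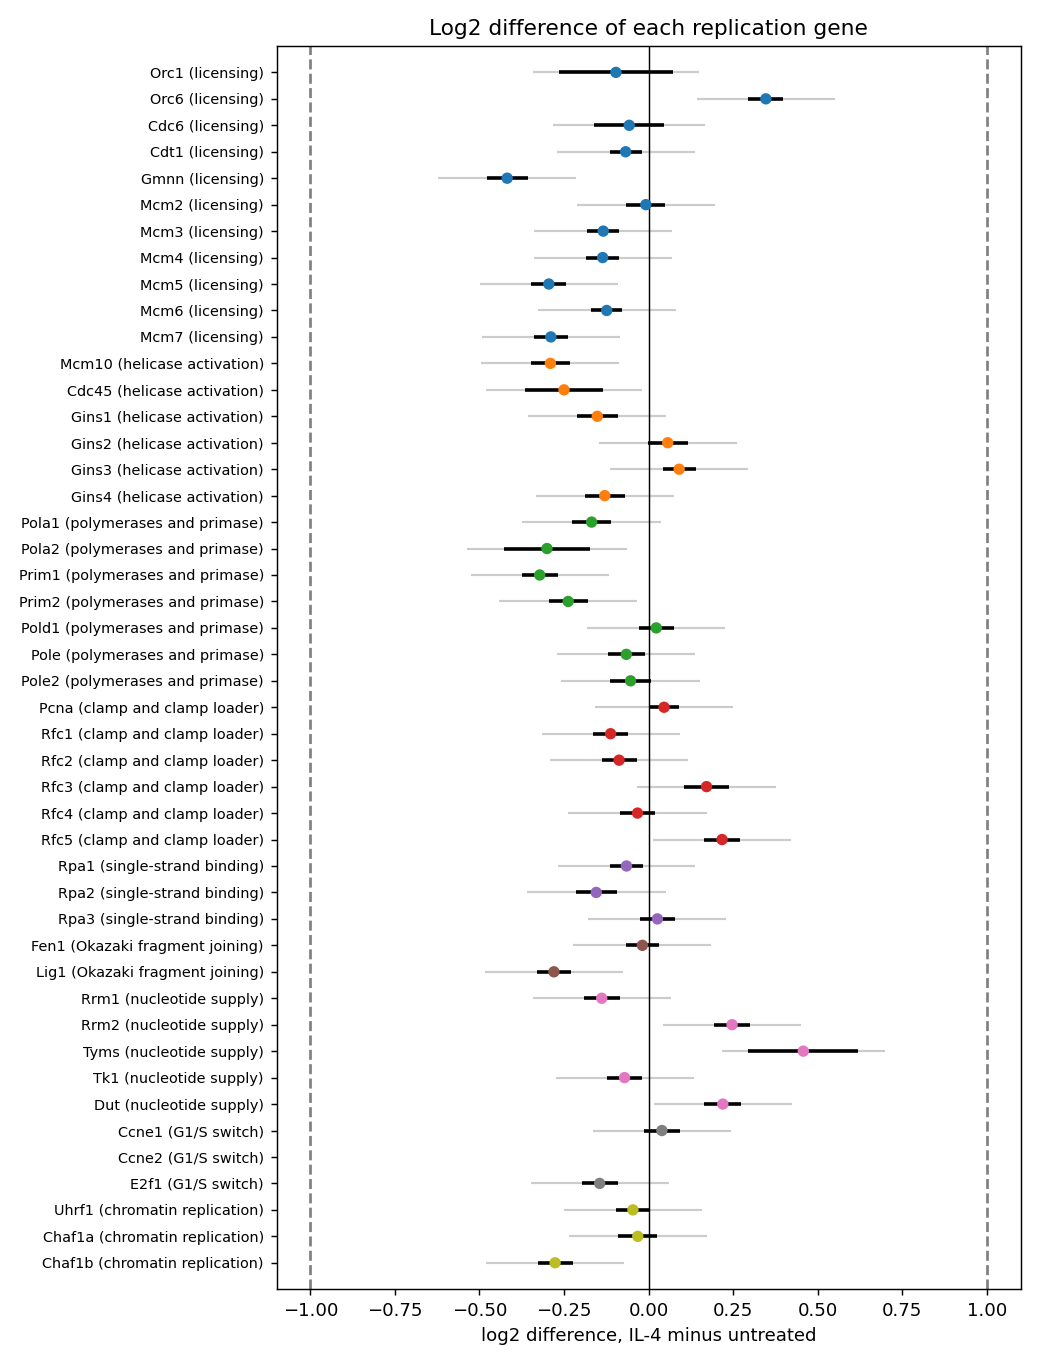
Log2 difference (IL-4 minus untreated, 1 array each) of the 45 detected genes, coloured by role, with black bars for the spot SD, grey bars for the software error and dashed lines at 2-fold. No gene reaches a dashed line, and the values run from -0.42 (Gmnn) to 0.46 (Tyms).

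**Figure D3:**
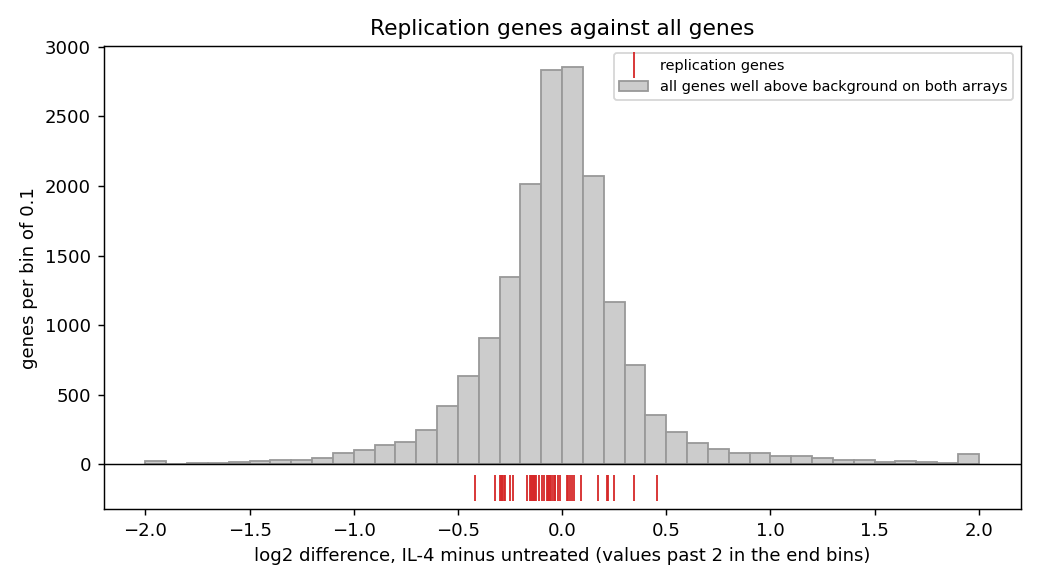
Number of genes per bin of log2 difference for the 17242 genes detected on both arrays (grey bars), with the 45 replication genes as red marks under the axis. The red marks lie within the central part of the grey distribution, with an interquartile range of 0.18 against 0.34.

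The 14 genes with an E2F match in their window had a median difference of -0.08, and the 23 with a window and no match had -0.03. Over all genes with a window, the medians were -0.01 with a match (464 genes) and -0.01 without (9701 genes). A second probe of 5 genes was detected on both arrays. Its sign was that of the probe used for 3 of them, with -0.22 for Chaf1b, -0.08 for Cdc6 and -0.53 for a dim probe of Uhrf1. The second probes of Rfc4 and Ccne1 had the opposite sign, 0.12 and -0.08.

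Other genes of the pathway were read from lists. Of 49 other replication factors, 47 were detected on both arrays, with a median difference of 0.00 and none at 2-fold. The extremes were Dscc1 (0.66), part of an alternative clamp loader, and Supt16 (0.24), a histone chaperone, against Dna2 (-0.63), a nuclease-helicase, and Mcm9 (-0.47), a relative of the MCM helicase. Their signals were low, with 201 untreated and 341 after IL-4 for Dscc1 and 163 and 206 for Supt16. Dna2 had 159 and 110, and Mcm9 had 68.6 and 52.9 with a spot SD of 0.21. Of 25 G1/S regulators, 23 were measured on both arrays with a median of 0.00. E2f2, an activator E2F, had 1707 untreated and 992 after IL-4, a difference of -0.88, or 1.84-fold lower on the IL-4 array. Lin54, a DNA-binding subunit of the MuvB complex, gave -0.41, Ccnd1, cyclin D1, 0.41 and E2f4, a repressor E2F, 0.28. Among 7 CDK inhibitors, Cdkn1a (p21) had 3609 and 5830, a difference of 0.59, and Cdkn2d (p19) gave 0.09. Cdkn1c (p57) had 788 and 534, a difference of -0.66, and Cdkn2b (p15) gave -0.43.

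Of 20 mitosis markers, 19 were on both arrays and 15 of them lay below 0, with a median of -0.11 that turned to 0.10 with median scaling and 0.18 with spike-in scaling. Nusap1, a spindle protein, gave -0.47 and the mitotic kinesin Kif11 -0.39, against 0.12 for Cdc20, the activator of the anaphase complex, and 0.10 for Birc5, survivin. None of the 20 reached 1.5-fold.

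**Figure D4:**
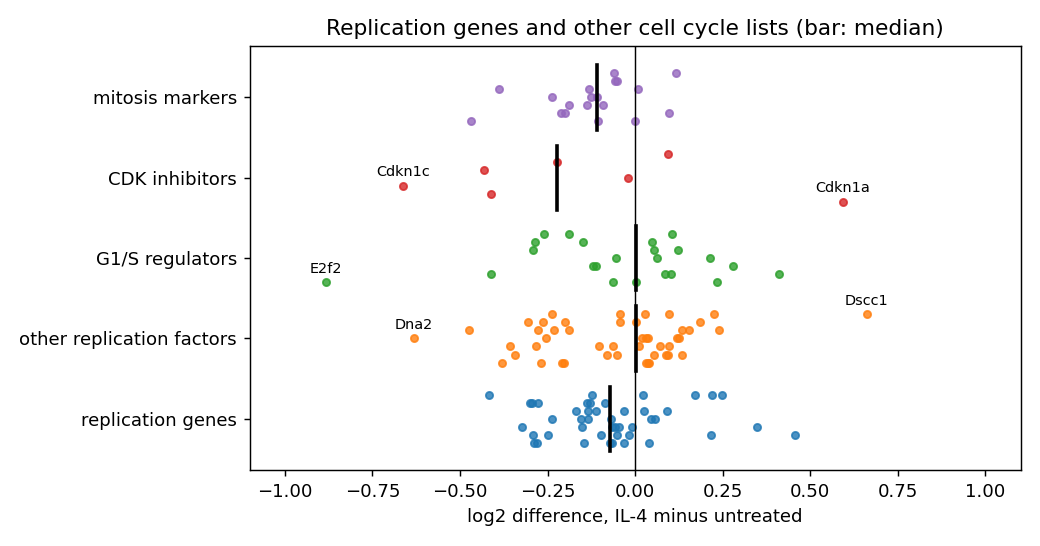
Log2 difference (IL-4 minus untreated) of each gene detected on both arrays in the replication genes and in 4 other cell cycle lists, with a black bar at the median of each list and vertical scatter for legibility. E2f2 (-0.88) lies farther from 0 than any replication gene.

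The IL-4 response genes served as a check of the labels. Arg1, arginase 1, had 85.0 untreated and 19688 after IL-4, a log2 difference of 7.76. Chil3, a chitinase-like protein, gave 3.83 and Mrc1, the mannose receptor, 2.42. Retnla, a secreted resistin-like protein, was detected after IL-4 only and was at least 595-fold higher there.

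The macrophage markers Adgre1 (F4/80) and Csf1r were bright on both arrays, at 23816 and 28655 and at 146026 and 166510. Cd14 (-1.42), Fcgr1 (-1.23) and Mertk (-1.14) were each lower after IL-4 by more than 2-fold. Of the 7 macrophage markers on the array, 5 were lower by 1.5-fold or more, against 5.6% of all genes detected on both arrays. The median of the 7 was -0.71, and -0.42 with spike-in scaling. All 5 stromal markers, genes of fibroblast-like cells, were detected on both arrays, with a summed intensity of 327461 untreated and 319136 after IL-4 and differences of -0.47 to -0.03, a range whose median of -0.14 was 0.07 with median scaling and 0.14 with spike-in scaling. All 7 neutrophil and precursor markers on the array were also detected on both, summing to 38384 and 36993. Of 8 lymphocyte markers 2 were, summing to 964 and 894 over the list. Of 6 erythroid and progenitor markers 2 were, summing to 3116 and 5239, with Klf1 and Gata1 detected on neither array. Of 6 eosinophil and mast cell markers 2 were, summing to 281 and 332, with Ear1 at 1.39 and Cpa3 detected in untreated cells only and at least 3.51-fold lower after IL-4. Cells of these other types could also carry replication transcripts, and their part in the values above was not tested.

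**Figure D5:**
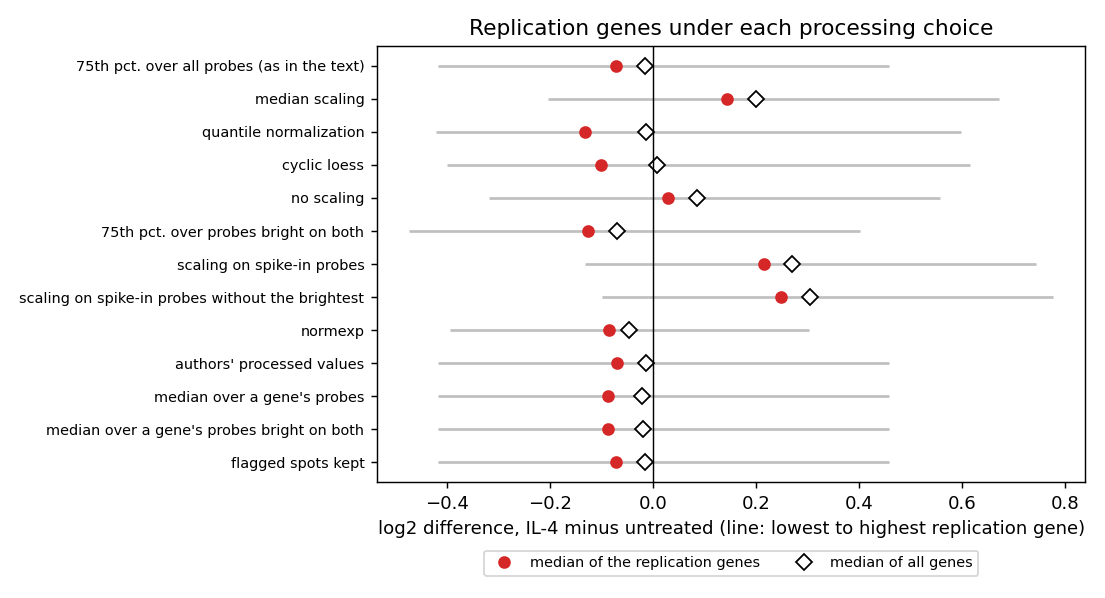
Median log2 difference of the 45 replication genes (red circles), of all genes detected on both arrays (open diamonds), and the range from the lowest to the highest replication gene (grey lines) under 13 processing choices. The red circle moves with the open diamond across the scalings, and lies below it in every row. Scalings by a constant per array leave the gap between them unchanged by arithmetic.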

How the data were processed

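RNA of untreated BMDMs and of BMDMs given IL-4 for 18 h was hybridised to 1 Agilent single-colour array each. The authors deposited Feature Extraction 10.10.1.1 output, with a background-subtracted intensity per spot without scaling between the arrays, and also log2 values whose method is not given in the sources used here. Control and outlier-flagged spots were left out, log2 values of a probe's spots were averaged, and each array's 75th percentile over 39424 probes was subtracted. A gene was read from its brightest probe, through RefSeq accessions named by GRCm38.p6. Of these probes 27229 were named. The untreated array had 59.8% and the IL-4 array 57.4% of its gene spots well above background, and the number of arrays limits precision. Genes past 2-fold were counted with no statistical test between conditions, and the script that counts them was checked on simulated arrays.

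The genes and lists were chosen with earlier results of these data known. Named are all members, every IL-4 response gene, every listed gene past 2-fold, and in 4 lists the 2 largest differences each way. Pold2 and Pold3 are named beside the polymerase members as well. An item is not reported here. Python 3.11.15, R 4.3.3 and limma 3.58.1 were used. Alternatives covered scaling, background correction, probe choice, flagged spots and the fold cutoff.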

Additional observations from a re-analysis of the deposited data

How the results depend on the processing

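The counts of 0 genes lower and 0 genes higher by 2-fold held under all 12 other settings for scaling, background and probes, and with the filter on dim probes changed. At a 1.5-fold cutoff both counts were 0 with the reported scaling, while 1 gene was higher with median scaling, quantile normalization or cyclic loess and 2 with spike-in scaling. The share of all genes past 1.5-fold is not given for those settings. The median of all genes was itself 0.20 with median scaling and 0.27 with spike-in scaling. The number of replication genes below 0, 33 of 45, became 10 with median scaling, 20 with no scaling and 6 with scaling on 7 spike-in probes. The share of all genes below 0, 52.6%, became 23.1%, 36.2% and 17.6%. The median of the replication genes, -0.07, became 0.14, 0.029 and 0.21 under the same settings. It was -0.13 with quantile normalization and -0.13 with the 75th percentile of probes detected on both arrays. Its distance from the median of all genes, -0.06, was -0.12 with quantile normalization and lay between -0.11 and -0.04 in the others. A change of scaling constant moves all genes alike. Of the 10 genes lower by more than the software error, 0 were still past it with median or spike-in scaling and 2 with no scaling. Of the 5 genes higher by more than that error, 2 were still past it with quantile normalization. The same number held with the 75th percentile of probes detected on both arrays, 3 with normexp and 4 with cyclic loess. With spike-in scaling Cdc45 (0.036), Prim2 (0.048), Lig1 (0.0061) and Chaf1b (0.0095) turned in sign. Leaving out the brightest spike-in probe, chosen after seeing the data, put 2 genes below 0 with a median of 0.25, and turned Mcm5 (0.025), Mcm7 (0.031), Mcm10 (0.030), Cdc45 (0.070), Pola2 (0.020), Prim2 (0.082), Lig1 (0.040) and Chaf1b (0.044). Of 15 genes past the software error, 7 kept their sign in all 12 settings. They were Gmnn and Prim1 of the lower genes and all 5 higher ones. Median, spike-in and no scaling raise every gene by a constant over the reported scaling. A higher gene therefore cannot turn in sign there, and its constancy is not a check. The share of all genes that kept their sign is not given. No paired analysis was possible because there is 1 array per condition, and no replicate could be left out. Dim probes such as Tyms, Orc1 and Pola2 carry the largest spot error.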
